A study of Drosophila melanogaster with 12 samples.

Results

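Core cytosolic ribosomal protein mRNAs were followed through 12 polysome-seq libraries of *Drosophila melanogaster* ovaries. The set was defined by gene symbol alone, as every RpL, RpS or RpLP gene followed by a number, without the *-like* genes and without the paralogs *RpS19a*, *RpS19b*, *RpS5a*, *RpS5b*, *RpL22*, *RpS10a*, *RpS10b*, *RpL10Aa* and *RpL10Ab*. It held 74 of the 17023 genes counted: 30 of the small subunit, 41 of the large subunit and 3 of the P stalk. Of these, 73 passed the filter on low counts, beside 9745 genes in all, and *RpS28a* did not. The genes *RpL19*, *RpL27A*, *RpL31* and *RpS12* also fit the definition but were not analysed here, because their current identifiers are not among those counted.

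Ovaries of 3 genotypes were dissected 1 to 3 days after eclosion from females fattened on yeast, and NosGAL4 drove each transgene in germ cells. In *aramis* RNAi ovaries the driver lowered *aramis*, annotated as *ais*, a DEAD-box helicase gene, together with a UAS-Dcr-2 transgene. In *bam* RNAi ovaries it lowered the differentiation factor *bam*, also with UAS-Dcr-2, and in UAS-tkv ovaries it drove the BMP receptor *tkv* without UAS-Dcr-2. Both *bam* RNAi and UAS-tkv served as developmental controls. Every genotype gave 2 polysome libraries, from gradient fractions extracted with acid phenol-chloroform, and 2 input libraries, from 20% of the lysate extracted with TRIzol, so polysome and input differ in extraction as well. Whole ovaries were sequenced, so the somatic cells of the ovary contribute to each library although the driver acts in germ cells. Whether replicates came from separate crosses is not given in the labels, so a p-value here covers the spread between samples, which may be technical.

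Each ribosome is built from rRNA and one copy of most of the ribosomal proteins, so their genes have to be expressed in balance. Their mRNAs are among the most abundant in growing cells, and most start with a 5′ terminal oligopyrimidine (TOP) tract. TOP mRNAs move between polysomes and untranslated particles with the activity of the TOR kinase, and La-related protein 1 (Larp) is known to bind them. Germline stem cells of the fly ovary make ribosomes at a high rate. Growth itself was not measured here.

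Libraries held between 3131667 and 15039925 counts. The targeted genes moved as labelled: *ais* stood at 8.50 to 13.5 CPM in *aramis* RNAi libraries and at 20.3 to 38.5 CPM in all others, and *tkv* was at 246 to 271 CPM in UAS-tkv libraries and at no more than 202 CPM in the RNAi lines. CPM stands here for counts scaled to the library size that edgeR's TMM method gives. *bam* stood at 0 to 3.55 CPM in *bam* RNAi libraries and at 4.47 to 8.23 CPM in UAS-tkv libraries, but *aramis* RNAi libraries were also low, at 0.590 to 1.65 CPM. The 2 *bam* RNAi polysome libraries stood apart from each other in these mRNAs by a median of 2.43 on the log2 scale, against 0.0914 to 0.876 within the other 5 groups, and results that use them are given with and without them.

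Per exon length, input levels of most core ribosomal protein mRNAs lay close together. The median of the mean input level over the 73 genes was 4147 TPM, a unit that divides counts by exon length and sets each library to the same total, and 64 of the 73 lay between 2000 and 8000 TPM. *RpL41*, which encodes a peptide of 25 codons, the shortest of the set, was the highest: it had 19927 and 21208 TPM in *aramis* RNAi inputs, 16595 and 27372 TPM in *bam* RNAi inputs and 20966 and 17586 TPM in UAS-tkv inputs. Its lowest input library was above the highest of every other member. Next came *RpS27A*, whose product is made as a fusion to ubiquitin, at a mean of 9302 TPM (range 8300 to 10196 over 6 input libraries). The stalk gene *RpLP1* (7260 TPM) and *RpL14* (7118 TPM) were also among the highest, and their ranges overlapped. *RpL40*, the other ubiquitin fusion, averaged 6012 TPM.

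**Figure D1:**
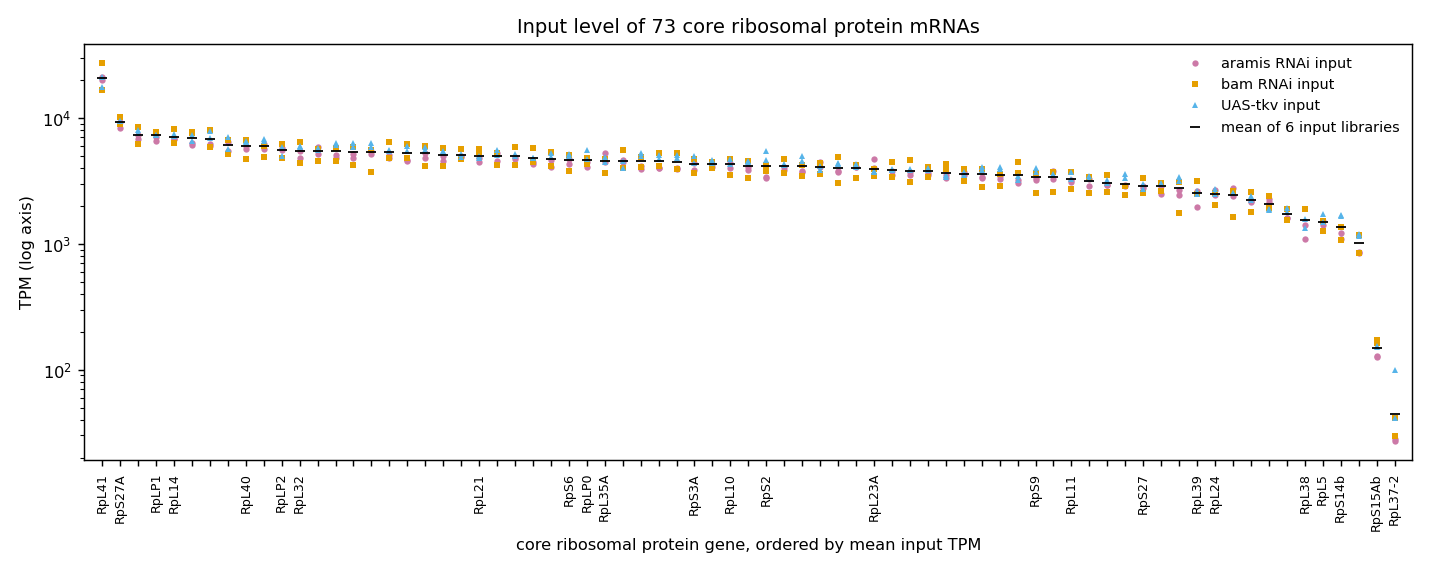
Input level of the 73 core ribosomal protein mRNAs that passed the filter, in TPM on a log axis, ordered by the mean of 6 input libraries (black bars), with both libraries of each genotype as points and some genes labelled. *RpL41* stands above the rest at a mean of 20609 TPM, and *RpS15Ab* and *RpL37-2* stand below it at 149 and 44.3 TPM.

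Only 7 of the 73 genes averaged under 2000 TPM. The lowest was *RpL37-2*, the lesser of the paired *RpL37* genes, with 26.9 and 27.9 TPM in *aramis* RNAi inputs, 41.4 and 29.5 TPM in *bam* RNAi inputs and 98.7 and 41.4 TPM in UAS-tkv inputs. *RpS15Ab*, the lesser of the *RpS15A* genes, averaged 149 TPM, *RpL34a* 1013 TPM and *RpS14b* 1353 TPM. These 4 are members of gene pairs, whereas *RpL5*, which carries 5S rRNA to the large subunit with *RpL11*, averaged 1486 TPM over an exon length of 3835 bases, the sum of all its annotated exons, against 299 codons of coding sequence. In CPM, which takes no account of length, *RpL5* stood at 4179 and 4330 in *aramis* RNAi inputs, against 3638 and 3018 in UAS-tkv inputs.

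Within gene pairs 1 copy gave most of the counts. *RpL37-1* took 98.1% to 99.8% of the *RpL37* counts over the 12 libraries, *RpS15Aa* 85.7% to 97.7% of the *RpS15A* counts, and *RpS28b* at least 99.97% of the *RpS28* counts. *RpS28a* had 7 and 4 counts in *aramis* RNAi inputs, 1 and 0 in *bam* RNAi inputs, 1 and 0 in UAS-tkv inputs and 0 in all 6 polysome libraries. It was at or near the floor of 3 counts in most libraries, and no difference was computed for it. The *RpS14* genes were the most even, with *RpS14a* at 58.1% to 74.3% of their counts, and *RpL34a* took 20.6% to 39.2% of the *RpL34* counts. How reads shared by near-identical copies were counted is not stated, so these splits are uncertain.

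As a share of all counts the core genes differed most between polysome libraries. They took 4.73% and 8.33% of counts in *aramis* RNAi polysomes, 31.2% and 8.68% in *bam* RNAi polysomes and 19.6% and 20.1% in UAS-tkv polysomes. Both *aramis* RNAi polysome libraries were below every other polysome library, although the second came close to *bam* RNAi polysome replicate 2. Inputs were closer, at 17.4% and 17.0% in *aramis* RNAi, 13.4% and 21.1% in *bam* RNAi and 18.8% and 18.0% in UAS-tkv. The balance of the subunits hardly moved: the summed counts of small subunit genes were 0.636 to 0.674 times those of large subunit genes in all 12 libraries, including the *bam* RNAi polysome libraries at 0.650 and 0.638.

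**Figure D2:**
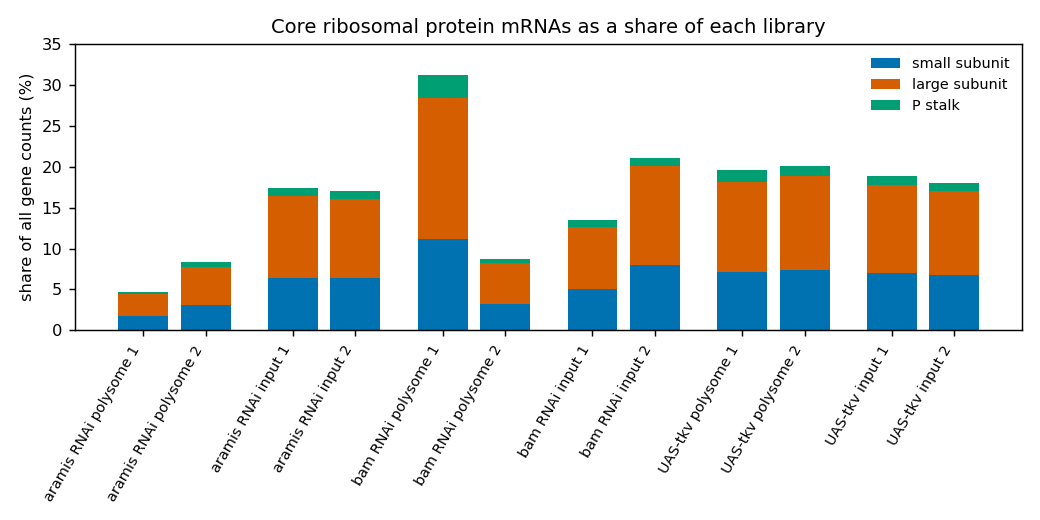
Share of all gene counts, in percent, taken by the core ribosomal protein mRNAs in each of the 12 libraries, stacked by subunit. The *aramis* RNAi polysome bars (4.73% and 8.33%) are the shortest along with *bam* RNAi polysome 2 (8.68%), and *bam* RNAi polysome 1 (31.2%) is the tallest.

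The input comparisons ask whether the amount of these mRNAs in the ovary differed between genotypes. No member was called in any of the 3 input comparisons by edgeR's quasi-likelihood test, where a call needs a p under 0.05 after Benjamini-Hochberg adjustment, and none reached an unadjusted p under 0.05. DESeq2 also called 0. Of all genes tested, 18.9% were called between *aramis* RNAi and UAS-tkv, 3.39% between *aramis* RNAi and *bam* RNAi and 0.236% between *bam* RNAi and UAS-tkv. Median log2 differences over the 73 genes were 0.34, 0.28 and 0.04 in these comparisons, and those of all genes −0.04, −0.03 and 0.04. In bulk tissue, fewer cells that carry an mRNA and less of it per cell cannot be told apart.

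The small input difference of *aramis* RNAi from UAS-tkv was even across the set. In TMM-scaled CPM both *aramis* RNAi inputs exceeded both UAS-tkv inputs for 68 of the 73 genes, an arrangement found in 37.9% of all genes, while by share of counts the core genes were lower in *aramis* RNAi inputs (above), so the direction depends on the scaling. The member of lowest p, *RpL41*, had 4906 and 5056 CPM in *aramis* RNAi inputs, against 3698 and 2964 CPM in UAS-tkv inputs. Its libraries did not overlap, but the log2 difference of 0.58 ± 0.50 (SE) was not called (edgeR adjusted p = 0.455). *RpL23A* had 4760 and 3959 CPM in *aramis* RNAi inputs, against 2727 and 2653 CPM in UAS-tkv inputs and 2197 and 3559 CPM in *bam* RNAi inputs. It was the member of lowest p against *bam* RNAi too, at a log2 difference of 0.60 ± 0.59 (edgeR adjusted p = 0.588), and its exons share 421 bases with the host gene *Uhg7* on the same strand and 121 bases with *CG7974* on the other. *RpL35A* and *RpL6* followed it there (0.55 ± 0.55 and 0.46 ± 0.56), and both *aramis* RNAi inputs exceeded both *bam* RNAi inputs for 12 of the 73 genes, as they did for 33.1% of all genes. *RpS27*, with *RpL41* and *RpL23A* lowest by p against UAS-tkv, had 1568 and 1577 CPM in *aramis* RNAi inputs, against 1192 and 1056 CPM in UAS-tkv inputs, a difference of 0.48 ± 0.45. Between *bam* RNAi and UAS-tkv inputs the member of lowest p was *RpL37-2*, with 8.44 and 8.56 CPM in *bam* RNAi inputs, against 23.0 and 9.20 CPM in UAS-tkv inputs (−0.92 ± 0.82, edgeR adjusted p = 1).

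In polysomes the fitted levels of all 73 core genes were below UAS-tkv in *aramis* RNAi, with a median log2 difference of −1.48, against 0.02 for all genes tested. For 72 of the 73 genes both *aramis* RNAi polysome libraries lay below both UAS-tkv polysome libraries, an arrangement that 31.8% of all genes showed. The exception was *RpS15Ab*, with 85.9 and 119 CPM in *aramis* RNAi polysomes, against 99.2 and 195 CPM in UAS-tkv polysomes. The number called was small: 3 fell at an adjusted p under 0.05, where 13.6% of all genes were called lower, and 45 had an unadjusted p under 0.05. At over 2-fold and an unadjusted p under 0.05, 44 of the 73 were lower, as were 15.7% of all genes. The study set such cutoffs in DESeq2 on polysome counts controlled for input counts, not on polysome levels alone. For the change relative to input, tested here with edgeR (below), 20 of the 73 were lower, as were 1.79% of all genes.

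The number of calls changed with the libraries and settings of the fit, and the causes were not tested. The 2 *bam* RNAi polysome libraries enter the shared estimate of the spread, although this comparison does not use *bam* RNAi. Without these 2 libraries edgeR called 66 of the 73 genes lower (19.1% of all genes), without replicate 1 alone 66 (17.4%), without replicate 2 alone 68 (18.5%), and with *aramis* RNAi and UAS-tkv libraries alone 71 (20.7%). DESeq2 over all 12 libraries called 50 lower (12.4% of 13229 genes) and edgeR with no filter on low counts 47 (10.9% of 13229 genes). With TMM factors set without the core genes it called 2 (13.7%), and with the replicate number as a block 2 (13.1%). *RpL37-2* was the only member called with RLE scaling (13.2% of all genes called lower) and without UAS-tkv polysome replicate 2 (10.4%), *aramis* RNAi input replicate 1 (9.83%) or 2 (9.73%) or *bam* RNAi input replicate 2 (11.3%). Without UAS-tkv polysome replicate 1 there was also 1 call (9.12% of all genes), of a member other than the 3 called with every library in the fit. The median difference stayed between −1.52 and −1.44 wherever all polysome libraries of both genotypes were kept. It was −2.01 without *aramis* RNAi polysome replicate 2 and −1.18 without replicate 1, and edgeR then called 0 members, while it called 6.4% and 4.13% of all genes lower.

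**Figure D3:**
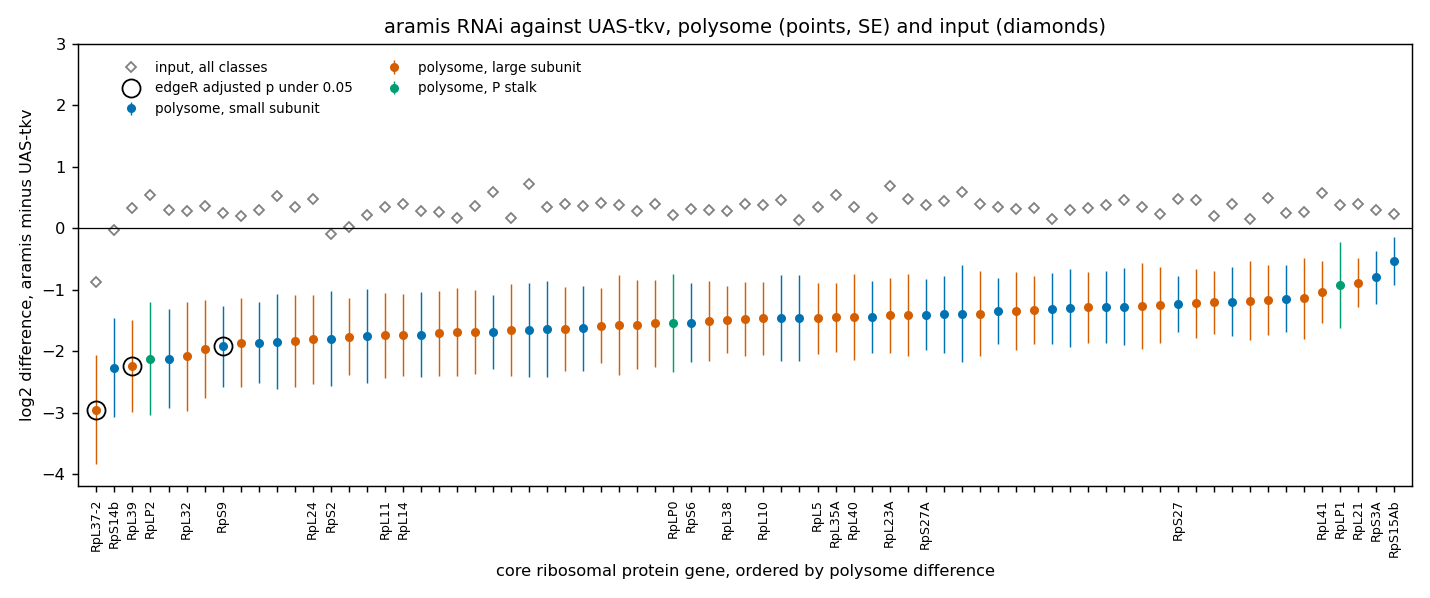
Log2 difference of *aramis* RNAi from UAS-tkv for each of 73 genes, with some genes labelled. Polysome values are filled points with an approximate standard error, coloured by subunit, and input values are open diamonds. Every polysome point is below 0, from −2.96 for *RpL37-2* to −0.53 for *RpS15Ab*, while all but 3 input diamonds are above 0, and the 3 circled genes were called in polysome.

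The 3 genes called differed widely in level. *RpL37-2* (FBgn0034822, dm6 chromosome arm 2R, 23100057 to 23100478, minus strand) had 6.29 and 3.63 CPM in *aramis* RNAi polysomes, against 62.4 and 16.7 CPM in UAS-tkv polysomes, a log2 difference of −2.96 ± 0.89 (edgeR adjusted p = 0.0270). These values rest on 81 and 11 counts in *aramis* RNAi and on 774 and 86 counts in UAS-tkv, and the UAS-tkv libraries differed more from each other than the *aramis* RNAi libraries did. *RpL39* (FBgn0023170, 2R, 24061853 to 24062431, minus strand), a short protein of the peptide exit tunnel, had 130 and 255 CPM in *aramis* RNAi polysomes, against 681 and 1145 CPM in UAS-tkv polysomes. Its difference was −2.25 ± 0.75 (edgeR adjusted p = 0.0408). *RpS9* (FBgn0010408, 3L, 9509793 to 9511531, minus strand), a protein that binds 18S rRNA early in assembly, had 394 and 698 CPM in *aramis* RNAi polysomes, against 2005 and 2124 CPM in UAS-tkv polysomes. The libraries were clearly separated, at a difference of −1.92 ± 0.66 (edgeR adjusted p = 0.0465). These calls lay close to the threshold, and the adjusted p of *RpS9* passed 0.05 with RLE scaling (0.0617), with TMM factors set without the core genes (0.0543) and with the replicate block (0.0538), and that of *RpL39* with RLE scaling (0.0541). Without UAS-tkv polysome replicate 1 the difference of *RpL37-2* was −1.73, with an edgeR adjusted p of 0.195.

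Genes chosen for their role each had separate polysome libraries in *aramis* RNAi and UAS-tkv. None of these differences was called by edgeR in the fit over all 12 libraries. Most members were called without the *bam* RNAi polysome libraries (above), and the calls of these role genes there are not given here. Of the P stalk, which recruits the elongation factors, *RpLP2* had 539 and 1269 CPM in *aramis* RNAi polysomes, against 3857 and 4011 CPM in UAS-tkv polysomes, a log2 difference of −2.12 ± 0.92. *RpLP0*, the stalk base, had 1210 and 2721 CPM, against 6461 and 4981 CPM, a difference of −1.54 ± 0.80. *RpLP1* had 922 and 2030 CPM in *aramis* RNAi polysomes, against 2720 and 2885 CPM in UAS-tkv polysomes, a difference of −0.93 ± 0.70. Without *aramis* RNAi polysome replicate 1 or 2 these differences were −1.69 or −2.86 for *RpLP2*, −1.13 or −2.24 for *RpLP0* and −0.52 or −1.60 for *RpLP1*, with none called by edgeR. The differences between stalk genes were not tested.

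Of the small subunit, *RpS6*, the substrate of S6 kinase, had 880 and 1575 CPM in *aramis* RNAi polysomes, against 3662 and 3477 CPM in UAS-tkv polysomes (−1.54 ± 0.64). *RpS2*, which lies at the mRNA entry channel, had 800 and 1772 CPM, against 4501 and 4416 CPM (−1.79 ± 0.77). *RpS3*, at the entry channel as well, had 938 and 1310 CPM, against 2928 and 2539 CPM (−1.28 ± 0.59). All 3 had separate libraries, and how these genes differed from one another was not tested. Without *aramis* RNAi polysome replicate 1 or 2 the difference of *RpS2* was −1.39 or −2.47, with neither called by edgeR.

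Large subunit genes had differences of similar size. *RpL5* had 824 and 1421 CPM in *aramis* RNAi polysomes, against 2819 and 3367 CPM in UAS-tkv polysomes (−1.46 ± 0.58), and its 5S partner *RpL11* had 580 and 1094 CPM, against 2732 and 2871 CPM (−1.74 ± 0.69). *RpL3*, close to the peptidyl transferase centre, had 1583 and 2637 CPM, against 5660 and 4320 CPM (−1.24 ± 0.62), and shares 412 exonic bases with an antisense gene. *RpL4*, which lines the exit tunnel, was at 1763 and 2940 CPM, against 6286 and 5669 CPM (−1.35 ± 0.64). *RpL10*, *RpL40* and *RpS27A* differed by −1.47, −1.45 and −1.41, and *RpL41*, the member of highest input level, by −1.04 ± 0.50, with 644 and 1108 CPM in *aramis* RNAi polysomes, against 1804 and 1789 CPM in UAS-tkv polysomes. As groups, 29 small subunit genes had a median difference of −1.46 and 41 large subunit genes one of −1.49.

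Both copies of each pair had negative differences, as all 73 members did. The sizes differed most in the *RpL37* and *RpS15A* pairs, and the value of *RpL37-2* rests on few counts (above). *RpS14a* and *RpS14b* differed by −1.66 ± 0.76 and −2.27 ± 0.81 in polysomes, *RpL34a* and *RpL34b* by −1.77 ± 0.63 and −1.55 ± 0.71, and *RpL37-1* by −1.69 ± 0.69 beside −2.96 of *RpL37-2*. In the *RpS15A* pair, *RpS15Aa* had 515 and 873 CPM in *aramis* RNAi polysomes, against 1531 and 2239 CPM in UAS-tkv polysomes (−1.44 ± 0.59), while *RpS15Ab* overlapped (−0.53 ± 0.39). In the fit over all 12 libraries none of these passed the adjusted threshold apart from *RpL37-2*. *RpS28b*, with no measurable partner, was at −1.28.

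Other genes of translation were taken from lists. Of 9 other translation genes measured, eEF1 subunit genes *eEF1beta* and *eEF1delta* fell in *aramis* RNAi polysomes relative to UAS-tkv (−1.74 ± 0.61 and −1.21 ± 0.27, edgeR adjusted p = 0.0492 and 0.00650), *pAbp*, the poly(A)-binding protein gene, rose (1.17 ± 0.41, adjusted p = 0.0490), and the list median was −0.64. *eEF1delta* was lower in input as well (−0.95 ± 0.27, adjusted p = 0.0288). Of the 4 measured genes for the control of TOP mRNAs, *Thor*, which encodes 4E-BP, a repressor of cap-dependent initiation held off by TOR, had 1355 and 1435 CPM in *aramis* RNAi polysomes, against 167 and 361 CPM in UAS-tkv polysomes. It rose in polysome by 2.40 ± 0.45 (edgeR adjusted p = 0.00313) and in input by 2.42 ± 0.45 (adjusted p = 0.00550). *larp* had 168 and 113 CPM in *aramis* RNAi polysomes, against 43.1 and 42.7 CPM in UAS-tkv polysomes, a rise of 1.71 ± 0.33 (edgeR adjusted p = 0.00362), with inputs that overlapped at 231 and 245 CPM in *aramis* RNAi, against 233 and 192 CPM in UAS-tkv. The kinase gene *mTor* and its partner *raptor* were not called in either fraction. Mitochondrial ribosomal protein genes had a polysome median of −1.22 with 45 of 70 called lower, at a median standard error of 0.37, against a median of −1.48 with 3 of 73 called and a median standard error of 0.66 for the core genes. Of all genes, 13.6% were called lower. The families differed in input, with medians of −0.48 for the mitochondrial genes and 0.34 for the core genes. For polysome against input within *aramis* RNAi the medians were 0.26 and −1.65. Of the 10 measured ribosomal protein genes that the definition leaves out, 5 fell in polysome, among them the germline-enriched paralogs *RpS5b* (−3.66), *RpS19b* (−2.58) and *RpS10a* (−2.89), and these 3 fell in input too.

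Several lists of cell type markers moved with the genotype beside these results. All 3 measured genes of the germline list (*aub*, *piwi* and *osk*, of 5) were lower in both *aramis* RNAi inputs than in both UAS-tkv inputs. Their summed levels were 175 to 188 CPM, against 799 to 928 CPM, and none was at 0 in any library. *aub* had 27.2 and 28.4 CPM in *aramis* RNAi inputs, against 234 and 147 CPM in *bam* RNAi inputs. *osk* had 9.09 and 13.0 CPM, against 5.52 and 3.68 CPM, so the sum of this list does not follow germ cells alone. All 4 eggshell markers were lower (49.8 to 71.3 CPM in *aramis* RNAi inputs, against 3757 to 4803 CPM in UAS-tkv inputs). All 6 measured hemocyte markers were higher (4284 to 4612 CPM, against 442 to 1026 CPM), as were all 6 measured muscle markers (37400 to 39480 CPM, against 6021 to 13520 CPM), 3 of 4 ovarian soma markers (*Fas3*, *ptc* and *zfh1*; list sum 1104 to 1122 CPM, against 569 to 607 CPM), 3 of 6 midgut markers (78.8 to 177 CPM, against 3.84 to 111 CPM) and 2 of 5 fat body markers (770 to 944 CPM, against 695 to 1119 CPM). The fourth soma marker, *tj*, was lower, at 84.3 and 93.0 CPM in *aramis* RNAi inputs, against 212 and 151 CPM in UAS-tkv inputs. Of all genes, 37.9% were higher in both *aramis* RNAi inputs than in both UAS-tkv inputs. The midgut and fat body counts (3 of 6 and 2 of 5) are not far from that share. The summed levels of these 2 lists overlapped between the genotypes. They were also the lists with markers at 0 in some library (4 of 6 and 2 of 5). In polysomes the germline and eggshell sums were again lower in *aramis* RNAi libraries (219 to 222 CPM, against 470 to 584 CPM in UAS-tkv, and 92.0 to 285 CPM, against 5919 to 9739 CPM in UAS-tkv). Hemocyte, muscle and soma sums were again higher, with muscle at 32000 to 34010 CPM in *aramis* RNAi polysomes, against 5037 to 9153 CPM in UAS-tkv polysomes. No cell type sum overlapped between *aramis* RNAi and *bam* RNAi inputs either. In *bam* RNAi inputs the germline sum was 530 to 866 CPM, the hemocyte sum 1348 to 1486 CPM and the muscle sum 12100 to 21720 CPM. The part of these markers in the polysome differences was not tested.

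Against *bam* RNAi, the genotype that shares UAS-Dcr-2, the fitted polysome values of *aramis* RNAi were lower for all 73 genes, with a median log2 difference of −1.78. No member was called by edgeR, where 12.7% of all genes were called, although 59 had an unadjusted p under 0.05. DESeq2 called 59 lower (9.71% of 13229 genes). At over 2-fold and an unadjusted p under 0.05, 59 of the 73 were lower, as were 12.1% of all genes. Libraries overlapped for 72 of the 73 genes and were separate and lower in *aramis* RNAi for 1, where 24% of all genes were, since *bam* RNAi polysome replicate 2 lay near the *aramis* RNAi libraries. Without *bam* RNAi polysome replicate 2 edgeR called 67 (13.7% of all genes) at a median of −2.59, and without replicate 1 it called 0 (1.73% of all genes) at a median of −0.06, so the comparison rests on replicate 1.

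The gene of lowest p shows this split. *RpL32* had 566 and 1258 CPM in *aramis* RNAi polysomes, against 13534 and 1060 CPM in *bam* RNAi polysomes, a log2 difference of −3.001 ± 0.91 (edgeR adjusted p = 0.0521). *RpS14b* had 128 and 286 CPM, against 2275 and 204 CPM (−2.59 ± 0.82), and *RpL34a* had 147 and 271 CPM, against 1453 and 269 CPM (−2.04 ± 0.63). In each of them the replicate 1 library of *bam* RNAi was far above both *aramis* RNAi libraries, and the replicate 2 library lay between them. At the other end, *RpL21* had 663 and 1037 CPM in *aramis* RNAi polysomes, against 1062 and 913 CPM in *bam* RNAi polysomes (−0.22 ± 0.39).

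Between *bam* RNAi and UAS-tkv polysomes no member was called by edgeR (0.626% of all genes), none had an unadjusted p under 0.05, and DESeq2 called 0. Both *bam* RNAi libraries were below both UAS-tkv libraries for 4 of the 73 genes, as for 14.8% of all genes, and the other 69 overlapped. The median difference was 0.20, but it was 0.92 without *bam* RNAi polysome replicate 2 and −1.42 without replicate 1. *RpL21* had the lowest p, with 1062 and 913 CPM in *bam* RNAi polysomes, against 1173 and 1965 CPM in UAS-tkv polysomes (−0.67 ± 0.39, edgeR adjusted p = 0.468). *RpS3A*, a protein of the mRNA exit side of the small subunit, had 2408 and 1873 CPM, against 2720 and 3690 CPM (−0.58 ± 0.43), and *RpS27* had 885 and 421 CPM, against 914 and 1071 CPM (−0.60 ± 0.45). These 3 were below both UAS-tkv libraries even in *bam* RNAi replicate 1, the higher of the *bam* RNAi libraries.

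The *bam* RNAi polysome libraries differed in the order of members as well as in their level. All 73 genes were higher in replicate 1 than in replicate 2, by between 0.22 (*RpL21*) and 4.04 (*RpLP2*) on the log2 scale. *RpLP2* had 11486 and 698 CPM in these libraries, *RpL32* 13534 and 1060 CPM and *RpS2* 12043 and 1458 CPM, whereas *RpL41* had 1451 and 829 CPM. Once each library was centred on its own median, the SD of the difference between replicates over the 73 genes was 0.72 for *bam* RNAi polysomes, against 0.26 for *aramis* RNAi polysomes and 0.39 for UAS-tkv polysomes. Across the 73 genes, log2 CPM of *bam* RNAi polysome replicate 2 correlated with both *aramis* RNAi polysome libraries at a Spearman's rho of 0.96 and 0.95, and replicate 1 at 0.65 and 0.76. With the UAS-tkv polysome libraries the values were 0.87 and 0.90 for replicate 2, and 0.90 and 0.85 for replicate 1. These correlations are descriptions across genes, which are not independent replicates and share their library.

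**Figure D4:**
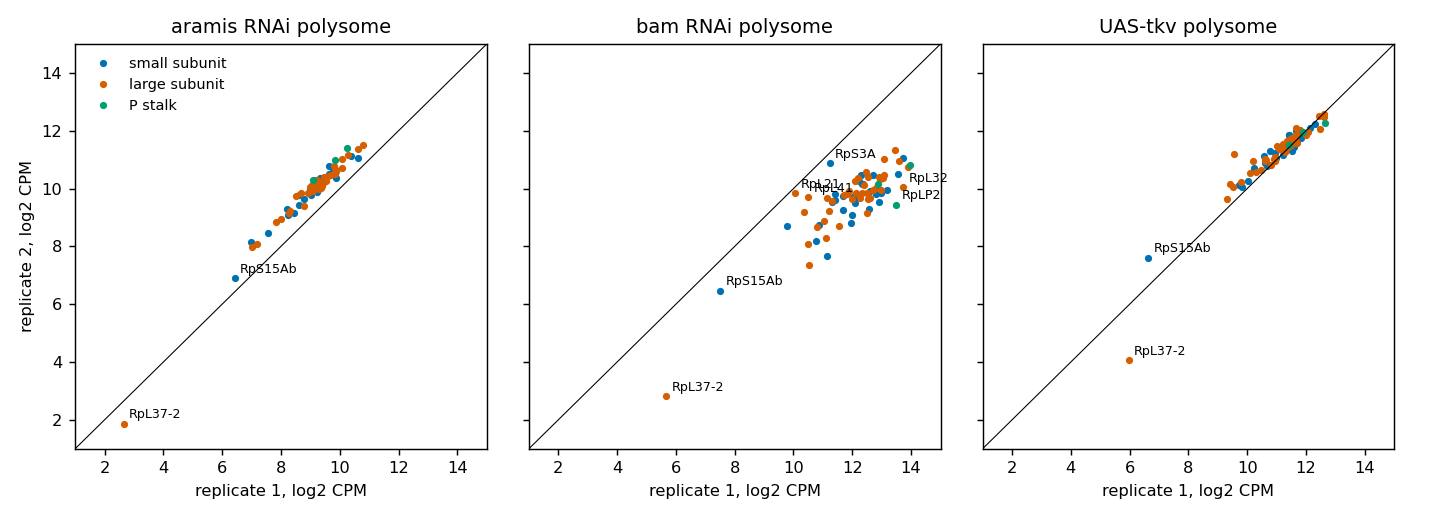
Level of 73 core ribosomal protein mRNAs in polysome replicate 2 against replicate 1, in log2 CPM, for each genotype, with the line of equal values. Points of *bam* RNAi lie below the line and scatter most, with *RpLP2* and *RpL32* farthest from it and *RpL21* and *RpS3A* nearest, while *aramis* RNAi points lie in a narrow band above it except for *RpL37-2*.

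Polysome against input within a genotype asks how much of each mRNA was in the polysome fractions relative to other mRNAs. In *aramis* RNAi, 72 of 73 genes were lower in both polysome libraries than in both inputs, an arrangement of 25.2% of all genes, and the median log2 difference was −1.65, against 0.00 for all genes. No member was called by edgeR (0.0103% of all genes), 52 had an unadjusted p under 0.05, and all 52 were over 2-fold lower, as were 2.49% of all genes. DESeq2 called 12 lower (0.401% of 13229 genes). In UAS-tkv the median was 0.24 with 37 genes higher in both polysome libraries, 9 lower and 27 overlapping, where 26.5% of all genes were higher and 31.1% lower. In UAS-tkv edgeR again called 0 (8.11% of all genes) with 1 at an unadjusted p under 0.05, and DESeq2 called 1 higher (4.09% of 13229 genes). In *bam* RNAi 69 genes overlapped between polysome and input, 1 was higher and 3 were lower in both polysome libraries (19% and 28.6% of all genes), and the median was 0.45. There edgeR called 0 (0.482% of all genes) with 3 at an unadjusted p under 0.05, and DESeq2 called 2 lower (3.87% of 13229 genes). Without *bam* RNAi polysome replicate 2 the median was 1.20 with 27 called higher (9.33% of all genes), and without replicate 1 it was −1.31 with 0 called.

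Seen pair by pair, the ratio of polysome to input in TPM, as log2((polysome TPM + 1)/(input TPM + 1)), had a median over the 73 genes of −1.90 and −1.31 in *aramis* RNAi, 0.47 and −1.25 in *bam* RNAi, and −0.23 and −0.30 in UAS-tkv. All genes had medians of 0.24 and −0.09, −1.23 and 0.32, and −0.30 and −0.54 in the same pairs. Relative to all genes the core genes therefore stood at −2.14 and −1.22 in *aramis* RNAi, at 1.70 and −1.57 in *bam* RNAi and at 0.07 and 0.24 in UAS-tkv. *aramis* RNAi was below UAS-tkv in both pairs, and *bam* RNAi fell on both sides. The sign in UAS-tkv depends on the scale: in TMM-scaled CPM the medians of its pairs were 0.09 and 0.34.

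**Figure D5:**
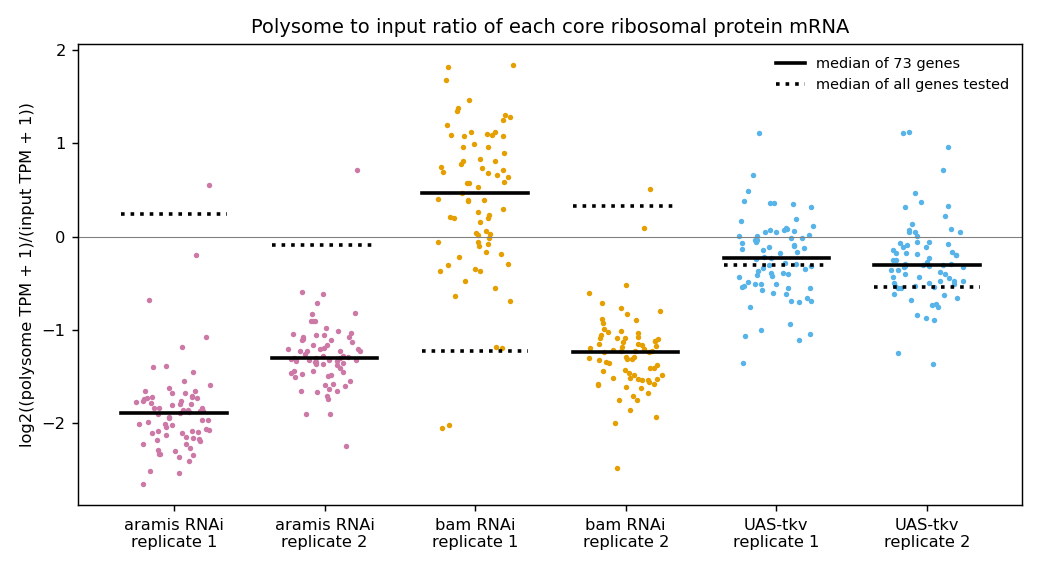
Log2 ratio of polysome to input TPM of each of 73 core ribosomal protein mRNAs in the 6 pairs of libraries with the same genotype and replicate number, with the median of the 73 genes (solid) and of all genes tested (dotted). The solid line lies below the dotted one in both *aramis* RNAi pairs and in *bam* RNAi replicate 2, and above it in *bam* RNAi replicate 1.

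*RpL41* (FBgn0066084, 2R, 24903416 to 24903935, minus strand) had the lowest fitted ratio of polysome to input in every genotype. It had 644 and 1108 CPM in *aramis* RNAi polysomes, against 4906 and 5056 CPM in their inputs, a log2 difference of −2.51 ± 0.52 (edgeR adjusted p = 0.479). In *bam* RNAi it had 1451 and 829 CPM in polysomes, against 2568 and 6025 CPM in inputs (−1.91 ± 0.51, adjusted p = 0.0956), and in UAS-tkv 1804 and 1789 CPM, against 3698 and 2964 CPM (−0.89 ± 0.50, adjusted p = 0.273). Polysome and input did not overlap in any genotype, and no difference passed the adjusted threshold.

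The members next to *RpL41* changed with the genotype. In *aramis* RNAi they were *RpL30* (−2.26 ± 0.62) and *RpS9* (−2.21 ± 0.67). *RpL21* had 663 and 1037 CPM in *aramis* RNAi polysomes, against 2401 and 2519 CPM in inputs (−1.53 ± 0.40), and *RpS27* 302 and 546 CPM, against 1568 and 1577 CPM (−1.89 ± 0.46). In *bam* RNAi the lowest after *RpL41* were *RpL21*, with 1062 and 913 CPM in polysomes, against 1932 and 2590 CPM in inputs (−1.20 ± 0.40), and *RpS27* (−0.97 ± 0.45). In UAS-tkv they were *RpL28*, with 1420 and 1607 CPM in polysomes, against 2388 and 2452 CPM in inputs (−0.68 ± 0.63), and *RpS20* (−0.44 ± 0.56), and in these too the libraries of the fractions did not overlap.

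*RpS15Ab* (FBgn0033555, 2R, 10821676 to 10822399, plus strand) stood at the other end and was the only member that was higher in polysome than in input in *aramis* RNAi. It had 85.9 and 119 CPM in *aramis* RNAi polysomes, against 70.5 and 69.5 CPM in inputs (0.55 ± 0.39, edgeR adjusted p = 0.998), and in UAS-tkv 99.2 and 195 CPM, against 61.9 and 57.3 CPM (1.30 ± 0.40, adjusted p = 0.0642). In *bam* RNAi it was at 182 and 88.4 CPM in polysomes, against 60.4 and 80.8 CPM in inputs (0.93 ± 0.39, adjusted p = 0.206). The libraries of the fractions were separate in all 3 genotypes. *RpL37-2* was also high, at −0.77 ± 0.86 in *aramis* RNAi, 1.76 ± 0.84 in *bam* RNAi and 1.30 ± 0.82 in UAS-tkv, though on few counts. Among abundant members *RpL39* (1.20 ± 0.72) and *RpLP2* (1.16 ± 0.89) were the highest in UAS-tkv, *RpLP2* (1.61 ± 0.90) and *RpS14b* (1.51 ± 0.79) in *bam* RNAi, and *RpL38* (−0.78 ± 0.54) in *aramis* RNAi. The *bam* RNAi values rest on replicate 1. By pair, the log2 ratio in TPM there was 1.84 and −1.52 for *RpLP2* and 1.68 and −1.09 for *RpS14b*. *RpL38* differed between its UAS-tkv polysome libraries, at 756 and 2369 CPM, and stood at 0.98 ± 0.54 there.

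The change in the ratio of polysome to input between genotypes, tested as the interaction of fraction and genotype, is the comparison of translational efficiency. Between *aramis* RNAi and UAS-tkv it was negative for all 73 genes, with a median of −1.85 on the log2 scale, against 0.05 for all genes. edgeR called 0 members (0.0103% of all genes were called), DESeq2 called 0, and the lowest edgeR adjusted p was 0.652. With the lysate, that is genotype and replicate number together, as a block the median was −1.90, edgeR called 0 members and 0% of all genes, and 21 members had an unadjusted p under 0.05. Unadjusted, 20 genes had a p under 0.05, all of them over 2-fold lower, as were 1.79% of all genes. In the ratios by pair, 72 of the 73 genes were lower in both *aramis* RNAi pairs than in both UAS-tkv pairs, *RpS15Ab* being the exception, an arrangement of 8.37% of the 9541 tested genes with an exon length.

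*RpS27* and *RpL35A* were among the members of lowest p. For *RpS27* the log2 ratio by pair was −2.11 and −1.59 in *aramis* RNAi, against −0.70 and −0.62 in UAS-tkv, and the interaction was −1.71 ± 0.64 (edgeR adjusted p = 0.652). *RpL35A* had ratios of −2.02 and −1.16 in *aramis* RNAi, against 0.01 and −0.25 in UAS-tkv (−1.99 ± 0.78). The most negative interaction was that of *RpLP2*, at −2.67 ± 1.27, with ratios of −2.04 and −1.03 in *aramis* RNAi, against 0.66 and 0.71 in UAS-tkv. *RpS6* (−1.86 ± 0.90), *RpL5* (−1.82 ± 0.80), *RpL11* (−2.09 ± 0.95), *RpL40* (−1.79 ± 0.98) and *RpS27A* (−1.78 ± 0.81) lay near the median. For *RpL41*, low in polysomes of every genotype, the interaction was −1.62 ± 0.70.

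Against *bam* RNAi the interaction was negative for all 73 genes too, with a median of −2.10 (0.17 for all genes), 0 called by edgeR (0% of all genes), 0 by DESeq2 and 41 at an unadjusted p under 0.05, each over 2-fold lower, as were 1.99% of all genes. With the lysate as a block the median was −1.78 and 0 members had an unadjusted p under 0.05. Without *bam* RNAi polysome replicate 2 edgeR called 62 lower (3.31% of all genes) at a median of −2.85, and without replicate 1 the median was −0.35 with 0 called. By pair, 32 genes were lower in both *aramis* RNAi ratios and 1 was higher (6.52% and 11.6% of all genes). *RpL24*, of lowest p, had ratios of −2.16 and −1.37 in *aramis* RNAi, against 1.08 and −1.08 in *bam* RNAi (−2.78 ± 1.01, edgeR adjusted p = 0.928), and *RpL32* (−3.25 ± 1.23) and *RpL23A* (−2.20 ± 0.85) came next. Between *bam* RNAi and UAS-tkv no member was called by edgeR (0.0103% of all genes) or DESeq2, none had an unadjusted p under 0.05, and the median of 0.19 was 0.93 without *bam* RNAi polysome replicate 2 and −1.48 without replicate 1. In 6 of the 73 genes both *bam* RNAi ratios were below both UAS-tkv ratios, as in 5.17% of all genes. *RpL21* had the lowest p there (−0.94 ± 0.55), with ratios of −2.06 and −1.12 in *bam* RNAi, against −1.05 and −0.51 in UAS-tkv, followed by *RpL38* (−1.23 ± 0.76) and *RpL41* (−1.02 ± 0.70).

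In the polysome comparison of *aramis* RNAi with UAS-tkv the SD of the log2 difference over the 73 genes was 0.37, and 63 lay within 0.5 of the median. For the interaction the SD was 0.34, with 62 within 0.5 of the median, beside a median standard error of 0.92 for a single gene. Against *bam* RNAi the SD was 0.58 in polysome and 0.61 in the interaction. Coding length showed little relation to the fitted ratio of polysome to input across the 73 genes, with a Spearman's rho of 0.12 in *aramis* RNAi, 0.07 in *bam* RNAi and 0.01 in UAS-tkv, although the shortest member, *RpL41*, was the lowest. *RpL39*, the next shortest at 51 codons, was among the highest in UAS-tkv. Input level and the ratio had a rho of −0.01, −0.04 and −0.18 in these genotypes, and Pearson's r of −0.58, −0.32 and −0.51, values that include the extreme genes *RpL41*, *RpS15Ab* and *RpL37-2* and share the input counts on both axes.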

How the data were processed

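Libraries were poly(A)-selected and directional. The authors' reads were mapped to dm6 (HISAT2, version 2.1.0) and summarised per gene (featureCounts, version 1.4.6), according to the submitters' notes. What the authors deposited are whole-number read counts, not normalized, for 17023 gene identifiers, of which 376 carried no name in Ensembl's BDGP6 annotation. Annotation release and strand setting were not given in the sources used here. Exons of 22 core genes overlap another counted gene, 19 of them on the other strand, and those counts are uncertain.

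Counts were fitted in R 4.3.3 with edgeR 4.0.16 (filterByExpr by group, TMM, quasi-likelihood test, 6 group means over 12 libraries, 2 per group) and adjusted over the 9745 genes kept. DESeq2 1.42.0 and other scalings, filters and left-out libraries were alternatives. Errors are approximate standard errors with n = 2 libraries per group. Each is the size of the log2 difference divided by the square root of the F statistic of its quasi-likelihood test. TPM used the union of annotated exons, with a pseudocount of 1 TPM in ratios. A p under 0.05 after adjustment made a call. Shares of all genes for DESeq2 and for edgeR with no filter are over 13229 genes and count 1 direction. Total counts were 3131667 to 15039925 per library.

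The members, lists and tests were chosen with earlier results of these data known. Genes named were, per comparison, up to 3 called members in each direction at 10 or more mean CPM or else the 3 of lowest p; the 5 highest and 5 lowest by input TPM; the 3 highest and 3 lowest ratios of polysome to input per genotype; genes of fixed role; paired copies; and members that failed the filter. Some further members were named after their values were seen (*RpL23A* overlap, *RpS3A* and *RpS2* in *bam* RNAi). Some genes that the rule names are not reported here.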

Additional observations from a re-analysis of the deposited data

How the results depend on the processing

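Counts of called core genes in polysome of *aramis* RNAi against UAS-tkv were 3 in the report, 1 with RLE scaling, 2 with TMM factors set without the core genes (13.7% of all genes called lower), 47 with no filter on low counts, 50 with DESeq2, 71 with the compared genotypes only and 66 without the *bam* RNAi polysome libraries, the last 2 settings chosen after seeing the data. Against *bam* RNAi polysomes the count of 0 became 1 with TMM factors set without the core genes (8.5% of all genes called lower), 56 with no filter (8.9%) and 59 with DESeq2 (9.71%). With no filter the interaction had 1 lower call for *aramis* RNAi against UAS-tkv (0.0302% of all genes) and 8 against *bam* RNAi (0.317%). Polysome against input had 10 lower calls with no filter (0.423%) and 12 with DESeq2 (0.401%) in *aramis* RNAi. In *bam* RNAi it had 6 calls with no filter, 5 higher (4.44%) and 1 lower (4.13%), and 2 lower with DESeq2 (3.87%). In UAS-tkv it had 2 higher calls with no filter (4.38%), 1 with DESeq2 (4.09%), and 2 with the compared genotypes only (2.08%) and without the *bam* RNAi polysome libraries (7.71%). The causes of these shifts were not tested. The 3 input comparisons and the interaction of *bam* RNAi with UAS-tkv had 0 calls in every setting run, leaving out libraries included.

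Leaving out 1 library at a time gave 0 to 68 calls for polysome of *aramis* RNAi against UAS-tkv (66 without *bam* RNAi polysome replicate 1, 68 without replicate 2, 1 without UAS-tkv polysome replicate 1 or 2, *aramis* RNAi input replicate 1 or 2 or *bam* RNAi input replicate 2, and 0 without either *aramis* RNAi polysome library), 0 to 67 for *aramis* RNAi against *bam* RNAi polysomes, 0 to 1 for *bam* RNAi against UAS-tkv polysomes, 0 to 62 for the interaction against *bam* RNAi, 0 to 27 for polysome against input in *bam* RNAi and 0 to 2 in UAS-tkv. A lone library was assumed to vary like the other groups. The median input difference of *aramis* RNAi from *bam* RNAi ran from −0.14 to 0.83 and that of *bam* RNAi from UAS-tkv from −0.47 to 0.40.

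Input was set aside from polysome lysate, but the sources do not say that equal replicate numbers mark 1 lysate. Over all genes tested, deviations of polysome and input with the same number correlated at 0.39 in *aramis* RNAi, −0.00288 in *bam* RNAi and 0.54 in UAS-tkv, and those of different genotypes at −0.136 to 0.188. Over the core genes alone the values were −0.241 in *aramis* RNAi, −0.135 in *bam* RNAi and 0.568 in UAS-tkv. Those of different genotypes ran from −0.407 to 0.596 in the core genes. The replicate block was the number for comparisons within a fraction, and the lysate (genotype and number together) for polysome against input and the interaction. With it there were 2 calls in polysome of *aramis* RNAi against UAS-tkv (13.1% of all genes called lower) and 0 in each of the other 11 comparisons. The median of polysome against input in *bam* RNAi was 0.0081, against 0.45 without the block, and the median interaction of *bam* RNAi with UAS-tkv became −0.21, against 0.19 without it. The spread in the main fit was shared by all 6 groups of 2 libraries. There the median standard error of a polysome difference between *aramis* RNAi and UAS-tkv was 0.66 on the log2 scale for the core genes. The smallest difference called among them was −1.92 (*RpS9*), and no detection limit was computed.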
